A study of Mus musculus with 14 samples.

Results

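Irx1, Irx2, Pou3f4, Ttr, Hhex, Rbp4 and Ghsr are 7 genes that mark the glucagon-producing α-cells and the somatostatin-producing δ-cells of the pancreatic islet. They were taken by name, not by their values, as the transcript clusters whose gene annotation names them. Each of the 7 had exactly 1 such row, and no row was shared with another gene, among 19938 genes measured in all. Of the 7, Irx1 (transcript cluster 10410501), Irx2 (10406005), Pou3f4 (10601459) and Ttr (10454192) were read as α-cell genes, and Hhex (10462818), Rbp4 (10467319) and Ghsr (10491098) as δ-cell genes.

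Islets of 11-week-old mice were compared on 14 arrays, each hybridised with labelled total RNA. The control group (5 arrays) has no genotype beyond that word in the labels. The Pdx-1+/- group (4 arrays) carries the allele Pdx-1-tTA, a tetracycline transactivator at the Pdx-1 locus that leaves these mice haploinsufficient for Pdx-1. The diabetic IKK2-CApdx-1 group (5 arrays, here IKK2-CA) expresses constitutively active IKK2, the kinase that activates NF-κB, in β-cells through the same Pdx-1-tTA driver. All 3 groups are of mixed C57BL/6 and NMRI strain and were untreated. The transgene is thus described as expressed in β-cells, whereas the genes described here were read as α- and δ-cell genes. The RNA of all islet cells was extracted together, and the cells each gene's RNA came from were not measured. Because whole islets were measured, fewer cells of a type and less RNA per cell cannot be told apart. The labels do not say that each array is a separate mouse, so a p-value here speaks of the spread among arrays, which may be technical.

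Islet cell identity is held by combinations of transcription factors. Irx1 and Irx2 are homeobox proteins of the Iroquois family found in α-cells, and Pou3f4 is a POU-domain factor that binds the proglucagon promoter. Hhex is a homeobox protein that δ-cells require. The remaining members are not transcription factors: Ttr is transthyretin, a carrier of thyroid hormone that also binds the retinol carrier Rbp4 in blood, and Ghsr is the receptor through which ghrelin stimulates δ-cells to release somatostatin.

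The 250 bases before the annotated starts of Rbp4 and Irx2 are shown (RefSeq, GRCm38.p6, gene strand). Rbp4 was the only member to pass a limma test in any comparison. Irx2 passed in none, but its IKK2-CA arrays all lay below all control arrays, as for 2.34% of all genes. Windows were held for 5 of the 7 members, 6 windows in all, since Rbp4 has an additional start. Capitals mark a match on either strand to TAAT, the core of homeodomain sites, to TATAAA, the TATA box, or to CCAAT, the CCAAT box. Matches on the opposite strand read ATTA and ATTGG. The Irx2 window lies at chr13:72628570-72628819 on the plus strand. The Rbp4 windows lie at chr19:38124812-38125061 and chr19:38125322-38125571 on the minus strand.
Irx2: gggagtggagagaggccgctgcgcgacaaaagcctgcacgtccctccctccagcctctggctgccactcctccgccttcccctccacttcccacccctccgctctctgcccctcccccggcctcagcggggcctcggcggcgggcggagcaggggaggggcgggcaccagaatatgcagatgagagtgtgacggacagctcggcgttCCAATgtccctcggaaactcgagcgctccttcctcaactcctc
Rbp4 start with TATAAA: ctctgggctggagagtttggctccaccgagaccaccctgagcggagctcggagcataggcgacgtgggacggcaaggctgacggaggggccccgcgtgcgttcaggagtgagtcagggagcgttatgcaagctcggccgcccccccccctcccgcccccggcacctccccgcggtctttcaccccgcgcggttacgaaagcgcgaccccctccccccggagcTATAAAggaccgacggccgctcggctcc
Rbp4 start with TAAT core: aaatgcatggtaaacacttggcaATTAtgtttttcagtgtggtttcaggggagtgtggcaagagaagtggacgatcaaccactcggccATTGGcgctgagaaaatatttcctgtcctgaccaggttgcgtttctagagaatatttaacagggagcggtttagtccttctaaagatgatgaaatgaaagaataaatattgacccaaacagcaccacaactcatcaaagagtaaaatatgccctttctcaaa
One Rbp4 window is GC-rich (70.8%) with a TATAAA match, and the other is AT-rich (40.8% GC) with a TAAT and a CCAAT match. The Irx2 window (68.4% GC) has 1 CCAAT match. Of 32817 windows of this length over all genes, 54.9% hold TAAT, 12.4% TATAAA and 33.8% CCAAT. The NF-κB consensus stands in 3.9% of all windows and in 0 of the 6 member windows, which says only that these letters are not in these bases.

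The labels were first read against the genes they alter. Pdx1 read 7.67 to 8.62 on the control arrays, 6.85 to 7.32 on the Pdx-1+/- arrays and 5.97 to 7.44 on the IKK2-CA arrays, with no overlap between control and either other group. Ikbkb, the mouse gene of IKK2, read 7.30 to 7.52, 7.18 to 7.62 and 7.42 to 8.03 in the same order. Pdx1 passed in IKK2-CA against control (−1.56, limma adjusted p = 0.0048) but not in Pdx-1+/- against control (−1.09, 0.21). Ikbkb did not pass in IKK2-CA against control (0.24, limma adjusted p = 0.283). Pan-endocrine genes, such as the secretory granule proteins, had mean levels of 8.90 to 9.87 over the 14 arrays, and markers of acinar cells, the enzyme-producing cells around the islets, 11.14 to 12.13. Arrays differed in genes of other tissues. The mean of 13 intestinal markers was 8.19 on Pdx-1+/- array 4 and 6.78 on control array 3, against 5.33 to 5.61 on the other 12 arrays. The mean of 10 adipocyte markers was 9.77 on IKK2-CA array 5, against 6.40 to 7.64 elsewhere. The mean of 12 leukocyte markers was 7.20 to 8.61 in IKK2-CA, 7.30 to 7.59 in Pdx-1+/- and 7.10 to 7.44 in control. Of the 12, Itgax alone passed, higher in IKK2-CA by 2.16 against control (limma adjusted p = 0.00395). Against Pdx-1+/- it was higher by 2.21 (0.0224). The mean of duct markers was 7.54 to 7.83 in control, 7.89 to 8.11 in Pdx-1+/-, with no overlap, and 7.70 to 8.06 in IKK2-CA. The surface protein gene Tspan8 on that list read 6.27 to 6.39 in control, 6.67 to 7.40 in Pdx-1+/- and 6.63 to 7.19 in IKK2-CA, where it was higher by 0.54 (limma adjusted p = 0.0442). Other duct genes went the other way: against control 3 of 7 were negative in IKK2-CA and 2 of 7 in Pdx-1+/-. Krt7 read −0.72 in IKK2-CA (limma adjusted p = 0.184) and −0.52 in Pdx-1+/- (0.999). Endothelial markers had means of 8.05 to 9.04. The mean of 7 markers of liver, which also makes Ttr and Rbp4, stayed between 5.29 and 5.61 on all 14 arrays. Single genes of that list moved in opposite directions, though none passed in IKK2-CA against control. Alb read 0.77 there (limma adjusted p = 0.0537), with 5.15 to 5.90 in control and 5.98 to 6.87 in IKK2-CA. Tat read −0.70 (adjusted p = 0.139), with 7.83 to 8.27 in control and 6.19 to 7.64 in IKK2-CA. Ahsg ran from 4.67 to 5.53 over all arrays.

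Rbp4 had lower means in both groups that carry the driver allele than in control islets, and it was the only member to pass the test in any comparison, in IKK2-CA against control. Control arrays 1 to 5 read 9.77, 9.21, 10.14, 9.91 and 10.02 on the log2 scale. Pdx-1+/- arrays 1 to 4 read 9.12, 9.29, 9.21 and 8.69, and IKK2-CA arrays 1 to 5 read 8.74, 8.98, 8.86, 9.35 and 9.31. The other 4 control arrays lay above all 9 arrays of the mutant groups, and control array 2 lay among them. The mean was 9.81 ± 0.36 (SD, n = 5) in control, 9.07 ± 0.27 (SD, n = 4) in Pdx-1+/- and 9.05 ± 0.27 (SD, n = 5) in IKK2-CA.

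In IKK2-CA against control, Rbp4 fell by 0.76 on the log2 scale, or 1.70-fold (SE 0.18, 95% interval −1.14 to −0.39, limma adjusted p = 0.0384 over all genes). Of all genes, 2.25% passed in this comparison in either direction and 1.56% passed as lower. The Rbp4 difference in Pdx-1+/- against control was −0.74 (SE 0.19, 95% interval −1.14 to −0.34), with an unadjusted p of 0.00138 but a limma adjusted p of 0.296. There 0.0953% of genes passed, 19 in number. Both comparisons use the same 5 control arrays. Between IKK2-CA and Pdx-1+/-, where 0.0752% of genes passed, the Rbp4 difference was −0.03 (95% interval −0.43 to 0.37, limma adjusted p = 0.997). The interval leaves room for a difference of either sign of up to about 1.34-fold.

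The size of the Rbp4 difference in IKK2-CA against control moved little when arrays were left out, but its call did not hold. With each of the 14 arrays left out in turn it ran from −0.91 to −0.68. It passed without control array 2 (adjusted p = 0.00663), Pdx-1+/- array 4 (0.025), IKK2-CA array 4 (0.0225) or IKK2-CA array 5 (0.0413). It missed the threshold without any of the other 10, control arrays 1, 3, 4 and 5, IKK2-CA arrays 1, 2 and 3 and Pdx-1+/- arrays 1, 2 and 3, with adjusted p from 0.0509 to 0.126. It also missed with only the 2 groups fitted (adjusted p = 0.0621), with every transcript cluster kept (0.0666) and with the replicate number as a block (0.0854). Of the arrays with raised markers of other tissues, Pdx-1+/- array 4 and IKK2-CA array 5 both left out gave −0.83 (adjusted p = 0.0232), and control array 3 alone left out gave −0.68 (0.126). All 3 left out gave −0.75 (0.0649). The part of duct, intestinal, adipocyte and leukocyte markers in the members' differences was otherwise not tested. The Pdx-1+/- difference from control passed without control array 2 (−0.89, adjusted p = 0.0357) and was −0.61 (adjusted p = 0.729) with Pdx-1+/- array 4 and IKK2-CA array 5 left out.

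**Figure D1:**
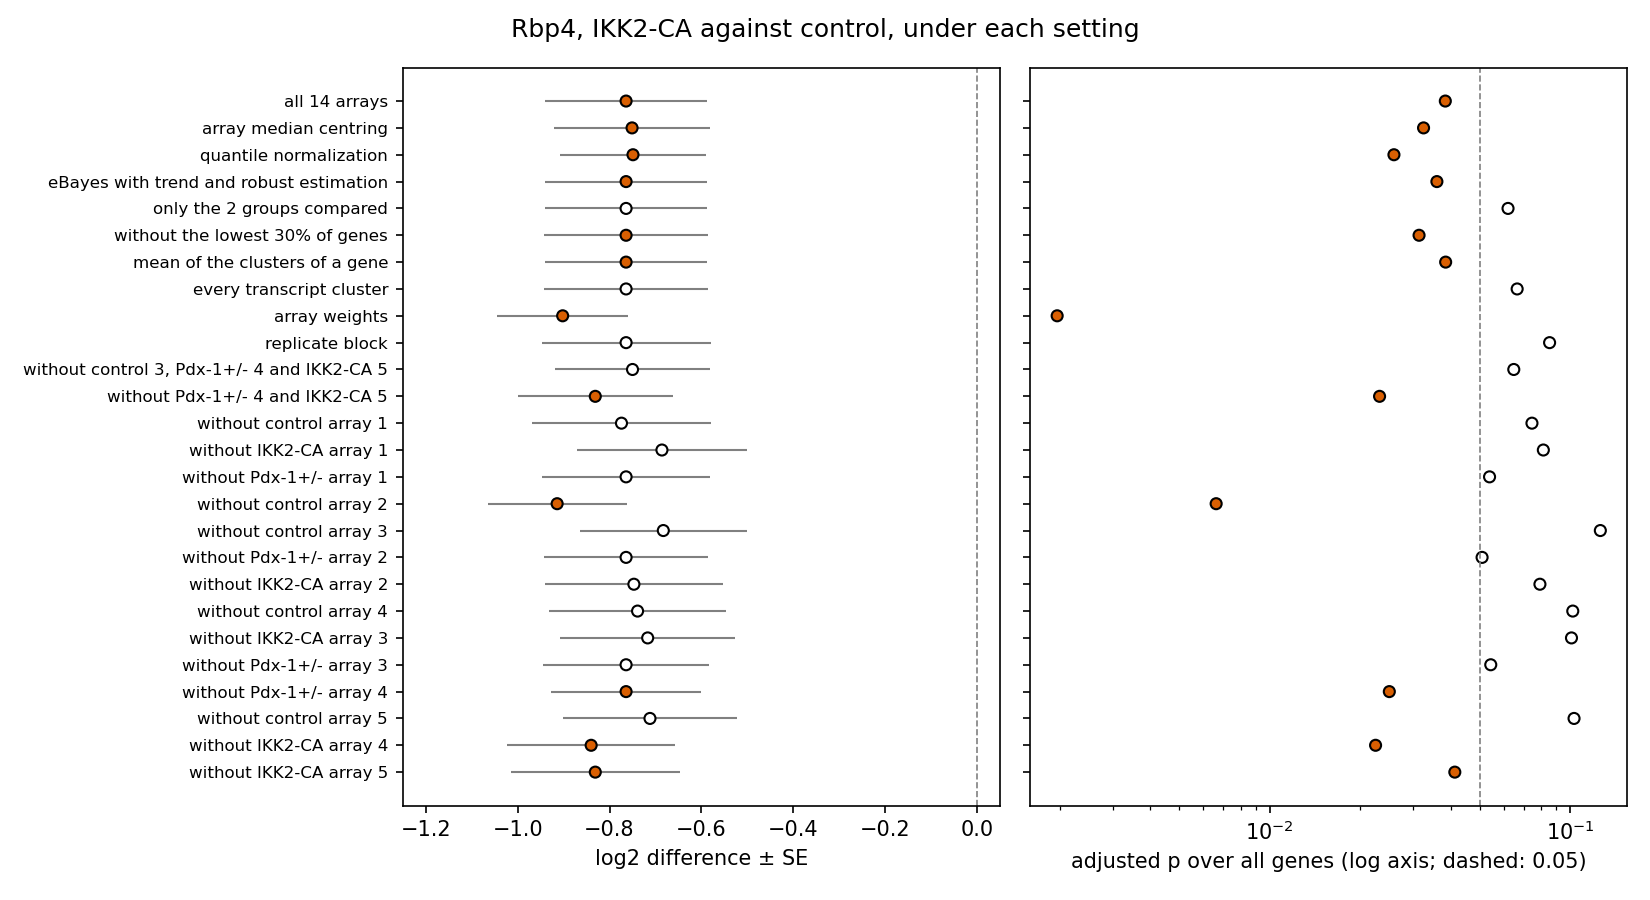
Rbp4 in IKK2-CA against control under each setting: left, the log2 difference with its standard error; right, the limma adjusted p on a log axis with 0.05 dashed; filled points passed. Every estimate lies below 0, from −0.91 to −0.68, while the adjusted p falls on both sides of the threshold.

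Hhex, the δ-cell transcription factor, did not follow Rbp4 in its group means. Control arrays 1 to 5 read 5.96, 5.72, 6.20, 6.34 and 6.53. Pdx-1+/- arrays read 6.27, 5.85, 6.45 and 5.69, and IKK2-CA arrays 6.10, 6.01, 6.10, 6.52 and 6.65. The 3 groups overlapped through almost their whole ranges, and the order of their means was IKK2-CA (6.28 ± 0.28, SD, n = 5), control (6.15 ± 0.32, SD, n = 5), then Pdx-1+/- (6.07 ± 0.35, SD, n = 4). Hhex differed by 0.13 in IKK2-CA against control (95% interval −0.26 to 0.52, limma adjusted p = 0.826) and by −0.08 in Pdx-1+/- against control (−0.49 to 0.33, adjusted p = 0.999). The sign of each turned under other settings given in the closing section. As a rough guide to signal above background, the mean of Hhex over the 14 arrays (6.17) exceeded that of 43.9% of genes. The share was 93.5% for Rbp4 (9.33), 48.7% for Ghsr, 42.8% for Irx1 and 32.9% for Pou3f4. The part of low signal in the small differences of Hhex, Ghsr, Irx1 and Pou3f4 was not tested.

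Ghsr, the ghrelin receptor, overlapped in all 3 groups. Control arrays read 6.23, 6.61, 6.75, 6.51 and 6.51, Pdx-1+/- arrays 6.27, 6.54, 6.42 and 6.55, and IKK2-CA arrays 6.42, 6.48, 6.36, 6.39 and 6.26. All IKK2-CA and Pdx-1+/- arrays lay inside the control range. Ghsr differed by −0.14 in IKK2-CA against control (95% interval −0.34 to 0.06, limma adjusted p = 0.521) and by −0.08 in Pdx-1+/- against control (−0.29 to 0.13, adjusted p = 0.999). Neither neighbour in the order control, Pdx-1+/-, IKK2-CA differed beyond its spread.

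Rbp4 was set against Hhex and against Ghsr within each array, a comparison chosen after their values were seen, as part of 10 tests. Hhex was not set against Ghsr. The other tests set Ttr against Irx1, Irx2 and Pou3f4, with unadjusted exact two-sided permutation p from 0.183 to 0.635. Rbp4 minus Hhex was 3.66 ± 0.20 (SD, n = 5) in control, 3.01 ± 0.30 (SD, n = 4) in Pdx-1+/- and 2.77 ± 0.13 (SD, n = 5) in IKK2-CA. No control array overlapped either group, and the unadjusted exact two-sided permutation p was 0.00794 for both, the smallest these numbers of arrays allow (0.0397 adjusted over the 10 tests). These p-values do not cover the choice of the pairs after their values were seen. Groups that do not overlap stay apart when any array is left out. The exact p, at most 0.0286 with an array left out, was therefore fixed in advance and adds no support. Rbp4 minus Ghsr differed from control by −0.62 in IKK2-CA and −0.66 in Pdx-1+/-, each with an exact two-sided permutation p of 0.0397 (0.0992 adjusted). Sst, the hormone of δ-cells, was lower by 0.67 in IKK2-CA against control (limma adjusted p = 0.0358) and read −0.45 in Pdx-1+/- against control (adjusted p = 0.822). The Sst values of IKK2-CA and control arrays overlapped, and the Sst call was not recomputed under the other settings.

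**Figure D2:**
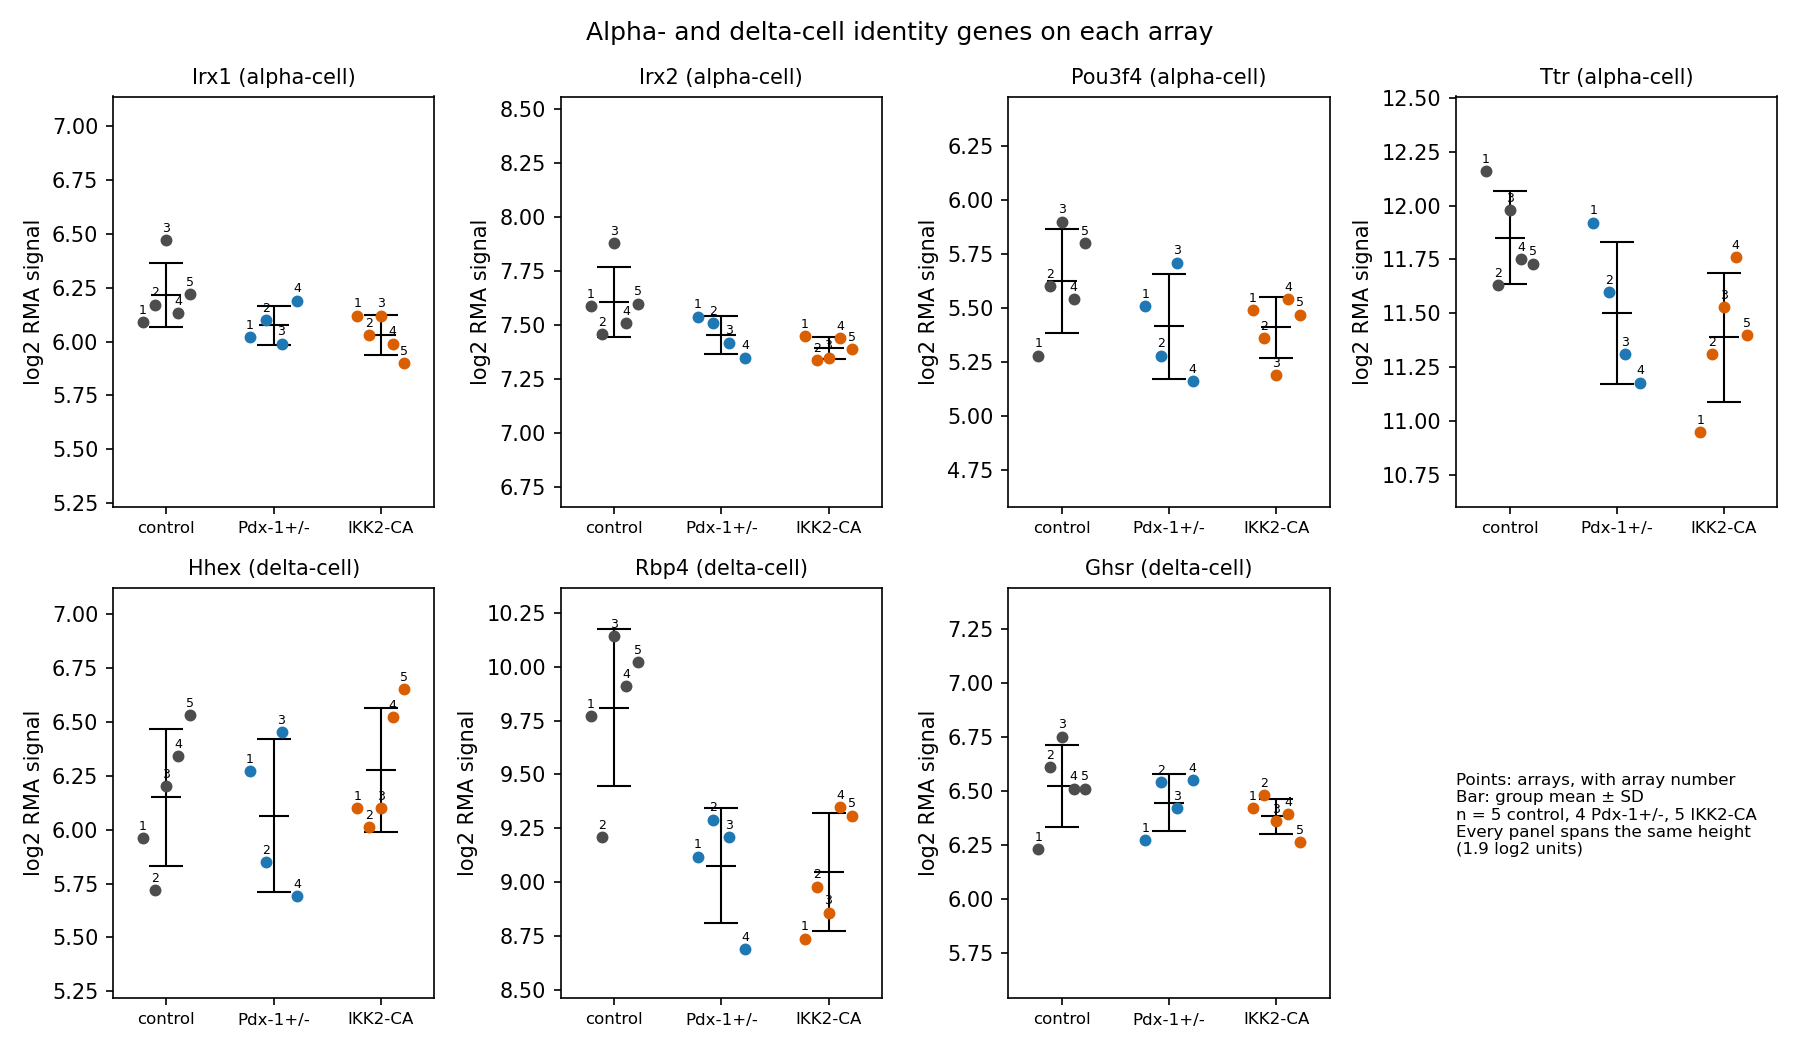
Log2 RMA signal of the 7 members on each array, with array numbers beside the points and bars for the group mean ± SD (5 control, 4 Pdx-1+/-, 5 IKK2-CA); all panels span the same height. Rbp4 separates most control arrays (9.21 to 10.14) from both other groups (8.69 to 9.35), while Hhex and Ghsr overlap throughout.

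Ttr, the most variable α-cell member, was lower on average in both groups but did not pass the test. Control arrays read 12.16, 11.63, 11.98, 11.75 and 11.73. Pdx-1+/- arrays read 11.92, 11.60, 11.31 and 11.18, and IKK2-CA arrays 10.95, 11.31, 11.53, 11.76 and 11.40. Pdx-1+/- array 1 and IKK2-CA array 4 lay within the control range and the other 7 lay below it. Ttr differed by −0.46 in IKK2-CA against control (SE 0.16, 95% interval −0.81 to −0.11, unadjusted p = 0.0133, limma adjusted p = 0.169), and by −0.35 in Pdx-1+/- against control (−0.71 to 0.02, adjusted p = 0.999). With array weights, which count variable arrays less, the former became −0.50 with an adjusted p of 0.0491.

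Irx2 was the 1 member whose IKK2-CA arrays all lay below all control arrays. Control arrays read 7.59, 7.46, 7.88, 7.51 and 7.60, Pdx-1+/- arrays 7.54, 7.51, 7.42 and 7.35, and IKK2-CA arrays 7.45, 7.34, 7.35, 7.44 and 7.39. The gap was narrow, 7.45 against 7.46, and 2.34% of all genes had every IKK2-CA array below every control array. Irx2 differed by −0.21 in IKK2-CA against control (SE 0.08, 95% interval −0.38 to −0.04, limma adjusted p = 0.193) and by −0.15 in Pdx-1+/- against control (−0.33 to 0.03, adjusted p = 0.999). No member had every Pdx-1+/- array below every control array, which 1.4% of all genes did (0 of 7 members).

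Irx1, which lies beside Irx2 on chromosome 13 with 0 protein-coding genes between them, read 6.09, 6.17, 6.47, 6.13 and 6.22 in control. Pdx-1+/- arrays read 6.02, 6.10, 5.99 and 6.19, and IKK2-CA arrays 6.12, 6.03, 6.12, 5.99 and 5.90. The groups overlapped, with control array 3 alone above the rest, as for Irx2. Irx1 differed by −0.18 in IKK2-CA against control (95% interval −0.36 to −0.01, limma adjusted p = 0.284) and by −0.14 in Pdx-1+/- against control (−0.32 to 0.04, adjusted p = 0.999).

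Pou3f4 read 5.28, 5.60, 5.90, 5.54 and 5.80 in control, 5.51, 5.28, 5.71 and 5.16 in Pdx-1+/-, and 5.49, 5.36, 5.19, 5.54 and 5.47 in IKK2-CA. Control array 1 was as low as the low arrays of the other groups. Pou3f4 differed by −0.21 from control in both groups, with limma adjusted p of 0.469 for IKK2-CA and 0.999 for Pdx-1+/-. For all 4 α-cell members the means of Pdx-1+/- and IKK2-CA lay below control and within 0.11 of each other, and neither of the neighbouring groups differed beyond its spread by the test. Differences between IKK2-CA and Pdx-1+/- ran from −0.11 to 0.21 over the 7 members, with limma adjusted p from 0.929 to 0.999 (Hhex at 0.21, Ttr at −0.11).

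Set against all genes, the members leaned below zero. In IKK2-CA against control 6 of 7 were negative, with a median of −0.21, against 53.6% of all genes and a median of −0.012. With Pdx-1+/- islets 7 of 7 were negative, with a median of −0.15, against 51.8% and −0.005. At an unadjusted limma p under 0.05 there were 4 members in the former (Irx1, Irx2, Ttr and Rbp4), among 3124 genes, and 1 in the latter (Rbp4), among 940 genes. Between IKK2-CA and Pdx-1+/- there were 0, among 1399 genes. The members share their arrays, so these counts describe them and test nothing.

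**Figure D3:**
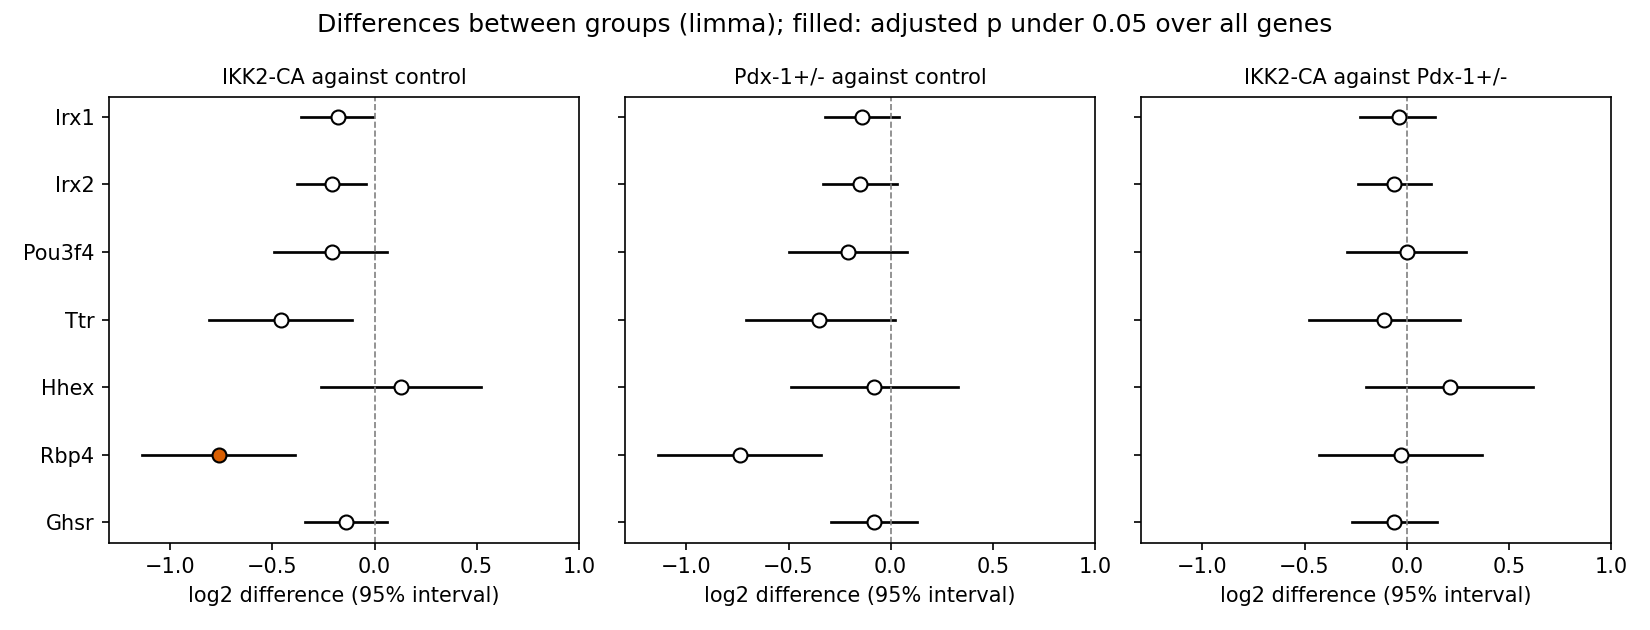
Log2 differences of the 7 members with 95% intervals in 3 comparisons; a filled point passed at an adjusted p under 0.05 over all genes. Rbp4 lies at −0.76 and −0.74 in the comparisons with control and at −0.03 between the mutant groups, and it is filled in IKK2-CA against control alone.

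Of the wider α-cell list, 18 genes were analysed here, and 4 of the 18 fell in IKK2-CA against control, none of them a member. Slc7a2, a transporter of arginine and other cationic amino acids, fell by 1.01 (SE 0.19, limma adjusted p = 0.017). Sphkap, which anchors protein kinase A, fell by 0.96 (SE 0.22, adjusted p = 0.0374). Dpp10, a membrane partner of potassium channels, fell by 0.83 (SE 0.14, adjusted p = 0.00872), and the cell adhesion gene Nrcam fell by 0.46 (SE 0.11, adjusted p = 0.0479). The share that fell, 4 of 18, stands beside 1.56% of all genes, and the list's median was −0.21, with 16 of 18 negative.

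Dpp10 was the clearest of the 4. Control arrays read 6.59, 5.85, 6.50, 6.19 and 6.31, IKK2-CA arrays 5.26, 5.50, 5.47, 5.65 and 5.40, and Pdx-1+/- arrays 5.81, 5.42, 5.53 and 5.23. Every array of both mutant groups lay below every control array. Dpp10 passed with each of the 14 arrays left out in turn. Slc7a2 missed the threshold without control array 3, 4 or 5 (adjusted p 0.0506 to 0.0608). Sphkap passed only without control array 2, Pdx-1+/- array 4 or IKK2-CA array 4, and Nrcam only without control array 2, Pdx-1+/- array 4 or IKK2-CA array 5, among the 14 arrays left out singly. The replicate block ended the calls of Slc7a2 (0.0634), Sphkap (0.114) and Nrcam (0.0794). Fitting only the 2 groups or keeping every cluster ended those of Sphkap (0.0626 and 0.0642) and Nrcam (0.092 and 0.0816), and median centring that of Nrcam (0.053). The count of 4 ran from 1 (without control array 3, 4 or 5) to 5 with an array left out, and from 1 (replicate block) to 7 (array weights) over the other settings. With Pdx-1+/- array 4 and IKK2-CA array 5 both left out it was 4, and 1 without control array 3 as well, where Dpp10 alone passed (adjusted p = 0.0313). None passed in Pdx-1+/- against control by limma (0 of 18, beside 0.0953% of all genes). At an unadjusted p under 0.05 there were 4 of 18, beside 940 of 19938 genes. There Dpp10 read −0.79 (adjusted p = 0.0715), Nrcam −0.55 (0.165), Slc7a2 −0.67 (0.642) and Sphkap −0.63 (0.887), and the list's median was −0.20. In IKK2-CA against Pdx-1+/-, 0 of 18 passed, beside 0.0752% of all genes, and the list's median was −0.09. Dpp10 read −0.04 there (limma adjusted p = 0.992).

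All 12 genes of the δ-cell list were measured, and Rbp4 alone fell in IKK2-CA against control, with a list median of −0.08 and 8 of 12 negative. The largest other differences had opposite signs. Frzb, a secreted inhibitor of Wnt signals, read −1.02 (SE 0.31, limma adjusted p = 0.105, but 0.0403 without IKK2-CA array 4), and Lepr, the leptin receptor, 0.69 (SE 0.23, adjusted p = 0.138). The Frzb signal was 7.44 on IKK2-CA array 3, against 8.80 to 9.49 on the rest of that group. With each array left out in turn the Frzb difference ran from −1.19 to −0.68. The highest Lepr value, 7.70, was on IKK2-CA array 5, the array with high adipocyte markers, and the part of those markers in it was not tested. Against control, 0 of 12 passed in Pdx-1+/- islets. Directly between the mutant groups 0 of 12 passed, with a list median of −0.04.

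**Figure D4:**
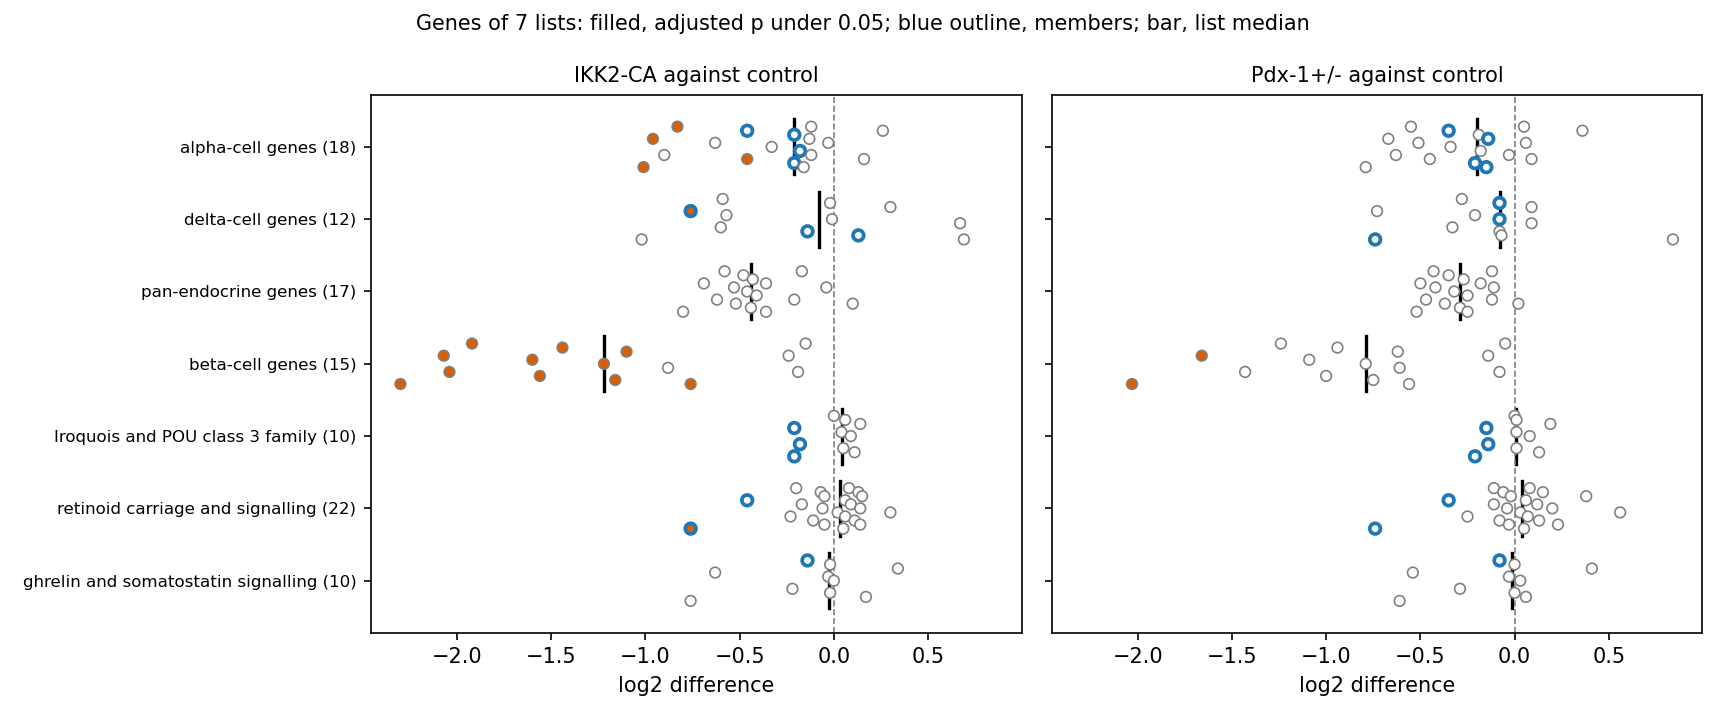
Log2 differences of each measured gene of 7 lists (gene counts in brackets) in IKK2-CA and Pdx-1+/- against control; filled points passed at an adjusted p under 0.05, blue outlines are members and bars are list medians. β-cell genes reach furthest below 0 (median −1.22), the α-cell list has 4 filled points and the δ-cell list has Rbp4.

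Genes of the β-cell list had medians further from 0 than the α- and δ-cell lists. Of 15 measured, 11 fell in IKK2-CA against control, beside 1.56% of all genes, with a median of −1.22. The lists were chosen with earlier results of these data known, and this one holds Pdx1, whose locus carries the driver. The contrast between lists is therefore a description and not a test. Gad1, the GABA-synthesising enzyme, fell by 2.30 (SE 0.19, limma adjusted p = 8.42e-05), and the granule protein gene Sytl4 fell by 2.04 (SE 0.20, adjusted p = 0.000195). The hormone Ucn3 (−2.07), the glucose transporter Slc2a2 (−1.92), the fatty acid receptor Ffar1 (−1.60) and Pdx1 itself (−1.56) also passed. Ucn3 missed with Pdx-1+/- array 4 and IKK2-CA array 5 both left out (adjusted p = 0.0606) and, of the arrays left out singly, passed only without control array 2, IKK2-CA array 2 or 4, or Pdx-1+/- array 4, and Ffar1 missed without control array 3 (0.0509). The count of 11 was 6 without control array 3, 10 with that pair left out and 7 without all 3. With Pdx-1+/- islets, Gad1 (−2.03) and Sytl4 (−1.66) passed, 2 of 15, beside 0.0953% of all genes, with a list median of −0.79. That count ran from 1 with the replicate block, where Sytl4 missed (adjusted p = 0.0637), to 5 with array weights, and was 4 without control array 2. In IKK2-CA against Pdx-1+/-, 0 of 15 β-cell genes passed, beside 0.0752% of all genes, and the list median was −0.37. Gad1 read −0.28 there (limma adjusted p = 0.886).

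Of 17 measured genes that all islet endocrine cells share, 0 passed in IKK2-CA against control by limma, although 16 were negative and the median was −0.44, below that of both the α-cell and δ-cell lists. The largest were Neurod1 (−0.80, adjusted p = 0.103) and Myt1 (−0.69, adjusted p = 0.0507), both transcription factors of endocrine cells. The count of 0 became 9 with array weights, 4 without control array 2 and 4 without IKK2-CA array 4. Directly between the mutant groups 0 of 17 passed, with a list median of −0.09. The pan-endocrine mean was lowest among control arrays on control array 2 (9.15) and highest among IKK2-CA arrays on array 4 (9.52), the same arrays whose Rbp4 lay closest to the opposite group. On Pdx-1+/- array 4, with intestinal markers at 8.19, the pan-endocrine mean was 8.90 and Rbp4 8.69, each the lowest of its group. The part of overall endocrine content in the members' differences was not tested.

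**Figure D5:**
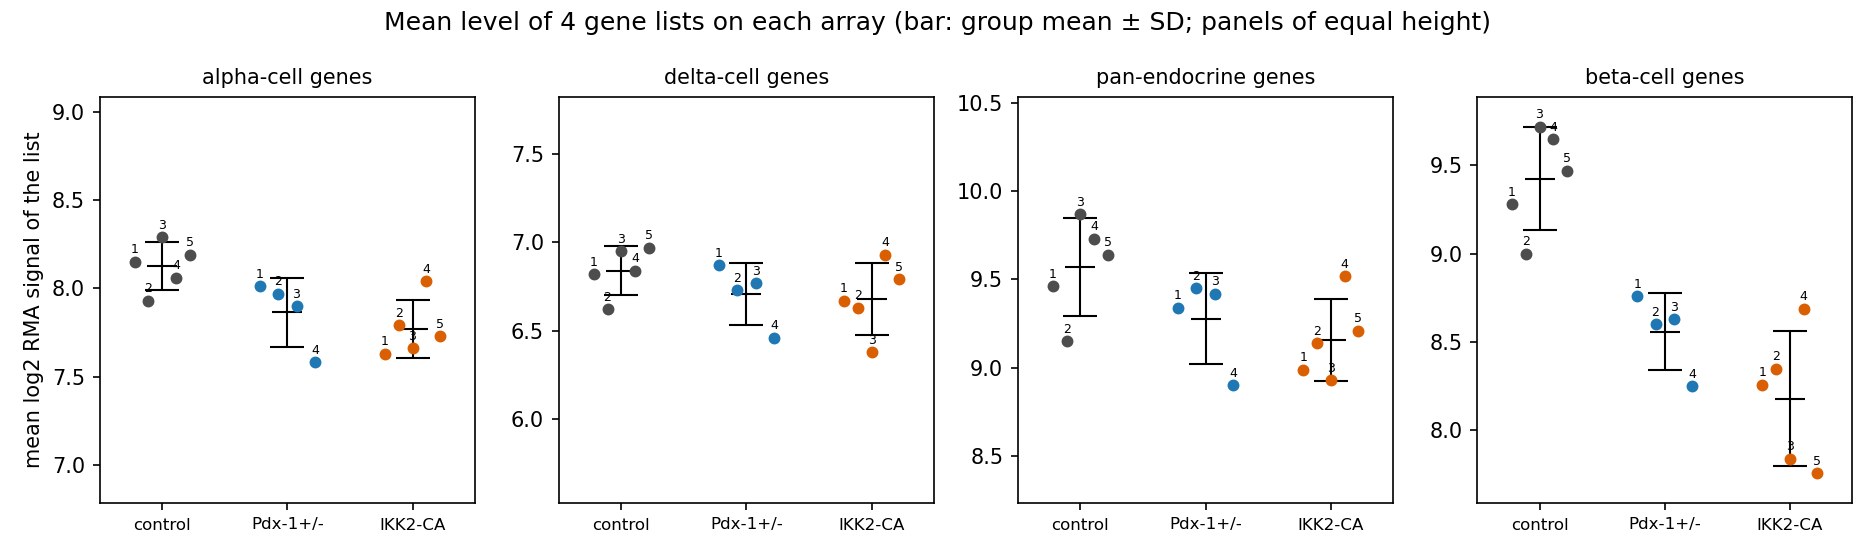
Mean log2 RMA signal of the α-cell, δ-cell, pan-endocrine and β-cell lists on each array, with group mean ± SD; panels have equal height. β-cell means do not overlap between control (9.00 to 9.72) and IKK2-CA (7.76 to 8.69), whereas δ-cell means do (6.62 to 6.97 and 6.38 to 6.93).

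Relatives of the α-cell transcription factors lay at or above 0. Of 10 Iroquois and POU class 3 genes, all measured, 0 passed in any comparison, and Irx1, Irx2 and Pou3f4 were the 3 negative ones in IKK2-CA against control. The other 7 had a median of 0.06, with Pou3f3 at 0.14 (limma adjusted p = 0.709) and Pou3f2 at 0.11 (adjusted p = 0.785).

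Ttr and Rbp4 also belong to retinoid transport. Of 22 measured genes of retinoid carriage and signalling, Rbp4 alone passed, and the other 20, without Ttr and Rbp4, had a median of 0.05 in IKK2-CA against control. Dhrs3, which turns retinal back to retinol, read 0.30 (limma adjusted p = 0.137), and Dhrs9, a retinol dehydrogenase, −0.23 (adjusted p = 0.862), a difference that became 0.077 with array weights. Of 10 measured genes of ghrelin and somatostatin signalling (Mlnr was not analysed here), 0 passed. Pcsk1, a convertase that cuts prohormones, read −0.76 (adjusted p = 0.113, but 0.0305 without control array 2), and the somatostatin receptor Sstr3 −0.63 (adjusted p = 0.11, but 0.0418 without IKK2-CA array 4).

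Hhex and Rbp4 lie on chromosome 19 with 6 protein-coding genes between them, Exoc6, Cyp26c1, Cyp26a1, Myof, Cep55 and Ffar4. All 6 were measured and 0 passed in any of the 3 comparisons. In IKK2-CA against control they read from 0.01 (Cyp26c1) to 0.30 (Ffar4, a fatty acid receptor of δ-cells, limma adjusted p = 0.357). None of the 6 was negative there, unlike Rbp4.

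The members' profiles over the 14 arrays were described by Pearson's r, with r after removing group means beside it; arrays share preparation and tissue content, and no test was made. Rbp4 was most like Slc9a7, an ion exchanger of the secretory pathway (0.97, and 0.93 within groups), the chromatin organiser Satb1 (0.96, 0.91) and the phosphatase regulator Ppme1 (0.96, 0.96), among 9968 genes compared. Ttr was most like the synaptic vesicle gene Syn2 (0.93, 0.90), Fpgt (0.92, 0.88) and Cluap1 (0.90, 0.86). Irx2 was most like Ubl3, Ift22 and Cbarp (each 0.90), Irx1 like H2-Q2 (0.87; a class I gene with near-identical relatives, so uncertain), Hhex like Ccdc88a (0.85), Pou3f4 like Slc37a1 (0.87) and Ghsr like Prp2 (0.93).

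Between members, the highest values over all arrays were those of Irx1 with Ghsr (0.79, and 0.74 within groups) and Irx2 with Rbp4 (0.79, 0.60). Ttr with Rbp4 gave 0.74 (0.52), and the neighbours Irx1 and Irx2 gave 0.71 (0.51). Hhex with Rbp4 gave only 0.39 over all arrays but 0.76 within groups: inside a group arrays with more Hhex had more Rbp4, while the group means of Rbp4 differed and those of Hhex did not pass the test.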

How the data were processed

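The authors deposited log2 values, 1 per transcript cluster and array, from Affymetrix Mouse Gene 1.0 ST chips. Per the submitters' processing notes these come from Affymetrix Expression Console (its version was not given), and the design text names RMA, the robust multichip average. The base of the logarithm was read from the range and the array medians (6.45 to 6.55). A level can be set against the same gene on another array, but against another gene only as a rough guide. Of 35556 clusters, 21789 have 1 gene symbol, 1621 several, and 12146 are not in the gene table used here. For 999 genes with several clusters the one with the highest mean was kept, leaving 19938 genes.

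All 14 arrays entered a single limma 3.58.1 model of the 3 groups (R 4.3.3), with Benjamini-Hochberg adjustment over all genes, a threshold of 0.05 and moderated standard errors. The steps were tested on simulated data. Precision is limited by array number and by how far a signal lies above background. The members and lists were chosen with earlier results of these data known. Named from each list were genes that passed, up to 6, or else the 2 largest differences. Likeness names the 3 genes of highest r among genes above the median mean.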

Additional observations from a re-analysis of the deposited data

Results flagged for a closer look

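No single array stood far enough from its group to pass Dixon's test at the 5% level in any of the 21 combinations of member and group examined (0 passed).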

How the results depend on the processing

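Of 525 recomputed member differences (21 values under 25 settings), 486 kept their direction and side of the threshold, 14 lost the call, 3 gained it and 22 changed sign. The 14 were all of Rbp4 in IKK2-CA against control, including the fit of only the 2 groups (adjusted p = 0.0621), every transcript cluster (0.0666) and the replicate block (0.0854). The 3 gains were Rbp4 in Pdx-1+/- against control with array weights (0.0497) and without control array 2 (0.0357), and Ttr in IKK2-CA against control with array weights (0.0491). The cause was not tested. Leaving out control 3, Pdx-1+/- 4 and IKK2-CA 5 together (3 arrays with raised markers of other tissues) was chosen after seeing the data.

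In IKK2-CA against control the 448 genes that passed became 241 with the 2 groups alone, 1431 with array weights, 197 with the replicate block, 186 without the 3 arrays and 120 to 980 with an array left out. The 1 member that passed became 0 with the 2 groups alone, every cluster, the block or without the 3 arrays, 2 with array weights and 0 to 1 with an array left out. The 19 genes of Pdx-1+/- against control became 73 with array weights, 9 with the block, 11 without the 3 arrays and 9 to 48 with an array left out, and the 0 members became 1 with array weights and 0 to 1 with an array left out. Between IKK2-CA and Pdx-1+/- the 15 genes became 1 with the 2 groups alone, 52 with array weights, 9 with the block, 52 without Pdx-1+/- 4 and IKK2-CA 5, 48 without the 3 arrays, and 2 to 66 with an array left out.

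Signs turned where differences were small. In IKK2-CA against control Hhex was −0.092 and Dhrs9 0.077 with array weights. In Pdx-1+/- against control Hhex was 0.011 with the replicate block, 0.042 without Pdx-1+/- 4 and IKK2-CA 5, 0.055 without the 3 arrays and −0.21 to 0.042 with an array left out. Between IKK2-CA and Pdx-1+/-, without Pdx-1+/- 4 and IKK2-CA 5 as without the 3 arrays Irx1 was 0.029, Hhex −0.006 and Ghsr 0.001, and Pou3f4 was 0.006 with quantile normalization. There, with an array left out, Pou3f4 ran from −0.088 to 0.095, Ttr from −0.22 to 0.026 and Rbp4 from −0.16 to 0.052. Ttr minus Pou3f4 within arrays ran from −0.24 to 0.031 in Pdx-1+/- against control with an array left out. Rbp4 minus Ghsr had an exact permutation p up to 0.0794 in IKK2-CA and 0.143 in Pdx-1+/- with an array left out, and of 0.0571 and 0.143 without the 3 arrays.

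Replicate numbers recur in the groups, but the 13 same-number pairs correlated from −0.39 to 0.36 after removing group means, 11 of them at or below 0.1, and 2 of 14 arrays correlated best with their own number, so no pairing was used.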
